A study of Mus musculus with 4 samples.

Results

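Ddit3, Ddit4, Trib3 and Chac1 are targets of the integrated stress response, and their log2 ratios were examined in an Erbb2-transfected mouse fibroblast line set against its untransfected parent. The 4 genes were picked by name, as genes of the ATF4 and CHOP pathway, from the probes that the platform annotation names, and with earlier results on the same arrays known. All 4 were measured on every array and make up 4 of the 6327 genes measured on all 4 arrays. Each was represented by 1 probe. Because the ratios of these genes were known when they were picked, their values are given as a description, without a test.

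The sample of interest was RNA of NIH3T3 cells, an established mouse embryonic fibroblast line, transfected with Erbb2 so that this receptor tyrosine kinase is overexpressed. The sample it was set against was RNA of NIH3T3 cells with normal Erbb2 expression. Both were hybridised together on 4 two-colour arrays, with the transfected sample in Cy5 on arrays 1 and 2 and in Cy3 on arrays 3 and 4. The series describes the arrays as technical replicates, so each line gave 1 biological sample and every SD below is a spread between arrays. The labels do not give the promoter of the transgene, whether the line is 1 clone, or the culture conditions. In RNA of a whole culture, fewer cells that express a gene and less of its RNA per cell cannot be told apart.

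The integrated stress response starts when kinases that sense unfolded protein, amino acid shortage, viral RNA or haem deficiency phosphorylate the translation factor eIF2. General translation then slows, while the mRNA of the transcription factor ATF4 is translated better. ATF4 raises genes of amino acid supply and, when stress lasts, the gene of a second factor, CHOP, which Ddit3 encodes. Trib3 and Chac1 lie downstream of ATF4 and CHOP, and Ddit4 is induced by ATF4 and also by hypoxia, glucocorticoids and DNA damage.

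Values are log2 ratios in the likely direction, transfected over untransfected, which the deposited table does not state; if it ran the other way, all signs would turn together. Values beyond 15 in size, which look like a cap and were left out, were positive where the transfected sample carried Cy5 and negative where it carried Cy3, so the sign of 1 orientation had probably been turned and the 4 columns likely run the same way. The likely direction rests on the labels, which name each array for the overexpression. Each array held between 15630 and 19256 values, and the number of arrays, not a read depth, limits the precision. The array medians over all genes were 0.10, -0.01, -0.14 and -0.16 on arrays 1 to 4. The SD over all genes was 0.80 on array 1, against 1.21, 1.35 and 1.02 on arrays 2, 3 and 4, so array 1 had the most compressed ratios. The annotation named 0 probes for Erbb2, and the transgene itself was not analysed here.

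The rows of array 1 and of arrays 2 to 4 line up only in the first part of the table, where Ddit4, Trib3 and Chac1 lie. In 5 of 6 windows of 1000 rows there, the mean Pearson correlation of array 1 with the other arrays across probes was highest without any offset. In the lower part, where Ddit3 lies, arrays 2 to 4 were read 3 rows above the probe name. That offset gave the highest correlation in 8 of 10 windows. The window that holds Ddit3 was 1 of the 2 exceptions, with r = 0.036 at the offset used and 0.052 at the best of 15 offsets. These correlations are weak, and probes of 1 array share its hybridisation and are not independent replicates.

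The bases upstream of the start of transcription are shown for Chac1 and Ddit4, since 2 of the inputs to the response named above, ATF4 and hypoxia, act through short motifs of which these windows hold a copy. Sequences are from RefSeq (GRCm38.p6), 5′ to 3′ on the strand of the gene, with the 250 bases before the annotated start, and all 4 genes had an entry. Capitals mark the letters of a motif, read on either strand. A match is a description of letters, not a site in use.
Chac1, chr2:119350992-119351241, plus strand: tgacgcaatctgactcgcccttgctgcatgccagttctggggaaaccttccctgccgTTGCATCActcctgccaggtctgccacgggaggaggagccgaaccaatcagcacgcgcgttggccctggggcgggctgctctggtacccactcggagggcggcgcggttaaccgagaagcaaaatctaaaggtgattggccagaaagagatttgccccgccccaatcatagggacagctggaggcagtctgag
Ddit4, chr10:59951771-59952020, minus strand: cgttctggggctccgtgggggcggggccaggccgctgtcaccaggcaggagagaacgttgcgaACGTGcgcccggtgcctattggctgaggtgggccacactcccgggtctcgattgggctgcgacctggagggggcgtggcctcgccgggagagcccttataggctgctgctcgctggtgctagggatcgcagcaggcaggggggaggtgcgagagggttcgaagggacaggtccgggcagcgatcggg
Trib3, chr2:152344028-152344057, minus strand, positions 4 to 33 after the start: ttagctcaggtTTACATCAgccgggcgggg

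In Chac1 the capitals are a C/EBP-ATF composite element, TGATGNAA, on the reverse strand at positions -193 to -186 from the start. In Trib3 the same letters, with another base at N, lie just after the start, at positions 15 to 22. The element was searched on both strands in the 300 bases from 250 before to 50 after the start, and 3.97% of all 32851 RefSeq windows of that length hold it. The exact form TGATGCAA was held by Chac1 alone among the 4 genes and by 0.895% of all windows. In Ddit4 the capitals are ACGTG, the core of the hypoxia response element, at positions -187 to -183; Ddit3 held it on the reverse strand after its start, at positions 22 to 26. That core is short and 19.6% of all windows hold it. The cAMP response element letters TGACGT, held by 7.51% of all windows, were in none of the 4 windows. For the endoplasmic reticulum stress response element the letters searched were CCAAT, then any 9 bases, then CCACG. They were held exactly by 0.119% of all windows and by none of the 4. Near matches were not searched, either in all windows or in the 4 genes. A near match was seen in Ddit3 on the reverse strand before its start: CCAAT, then 9 bases, then GCACG. It has no share of all windows beside it, so nothing is read from it.

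Ddit3 encodes CHOP, a C/EBP-family transcription factor that promotes cell death when endoplasmic reticulum stress is not resolved (chr10:127290793-127296291, GRCm38.p6). Its log2 ratios were 0.95, -2.79, -3.54 and -3.22 on arrays 1 to 4. Arrays 2, 3 and 4 thus lay close together and far below 0, in both dye orientations, while array 1 lay above 0. The mean was -2.15 ± 2.09 (SD, n = 4 arrays), a 4.44-fold lower level, and 0.727% of all genes had a lower mean. Without array 1 the mean was -3.18 ± 0.37 over 3 arrays, 9.08-fold lower. On arrays 2, 3 and 4, 2.45%, 1.53% and 1.11% of genes lay below Ddit3, against 91.4% on array 1.

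The Ddit3 value depends on which row is read. In the row of its name as deposited, arrays 1 to 4 had 0.95, 0.21, 0.15 and -1.64, with a mean of -0.08. One row further up than the offset used, arrays 2 to 4 had 0.02, 1.29 and 0.61. Array 1 had 0.13 in the row read for arrays 2 to 4, and the mean was -2.35 when array 1 was read there too.

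Probes of 1 gene gave a check of names near Ddit3, described across probes. In the rows around Ddit3, probes were set against other probes of the same gene in the first rows of the same array. At the offset of 3 rows the correlation was 0.102, 0.071 and 0.211 on arrays 2, 3 and 4 (176, 150 and 210 probes), against -0.126, -0.099 and 0.015 with no offset. For array 1 it was 0.002 with no offset (235 probes) and -0.072 at the offset of 3 rows (236 probes). Over the whole of the lower stretch array 1 had 0.105 with no offset and -0.035 at the offset of 3 rows (995 probes each). There arrays 2, 3 and 4 had 0.060, 0.127 and 0.144 at the offset of 3 rows (756, 684 and 909 probes). With no offset they had -0.040, -0.013 and -0.027. Differences between these weak correlations were not tested.

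**Figure D1:**
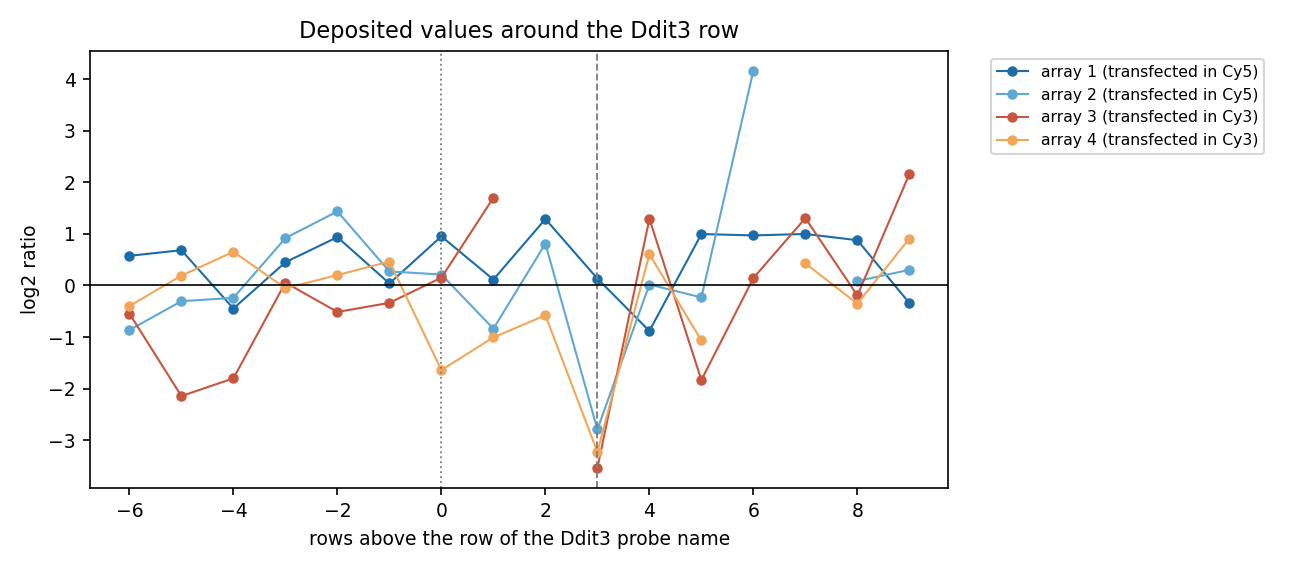
Deposited log2 ratios (vertical axis) on each of the 4 arrays in the rows around the Ddit3 probe name, by the number of rows above that name (horizontal axis; dotted line, the row of the name; dashed line, the row read for arrays 2 to 4). At 3 rows above the name arrays 2, 3 and 4 have -2.79, -3.54 and -3.22, while array 1 has 0.95 in the row of the name.

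Ddit4 encodes REDD1, which restrains the growth kinase complex mTORC1 through the TSC complex (chr10:59949675-59951770). Its log2 ratios were -1.53, -1.68, -1.74 and -1.77 on arrays 1 to 4. All arrays lay within 0.24 of each other and beyond 2-fold on the lower side. The mean was -1.68 ± 0.11, a 3.21-fold lower level, with -1.61 where the transfected sample carried Cy5 and -1.76 where it carried Cy3. An SD as small as that of Ddit4 was found for 33 of the 6327 genes (0.522%), against a median SD of 0.70. Its mean ranked 126th from the lowest, and array 1, where the other 3 genes lay near or above 0, placed Ddit4 below all but 2.94% of genes.

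Trib3 encodes a pseudokinase of the Tribbles family that binds AKT and ATF4 and dampens the response (chr2:152337425-152344060). Its log2 ratios were -0.06, -1.55, -1.01 and -0.54 on arrays 1 to 4. The sign was the same on every array, but array 1 was near 0 and only arrays 2 and 3 passed 2-fold. The mean was -0.79 ± 0.64, a 1.73-fold lower level, with -0.80 and -0.77 in the Cy5 and Cy3 orientations. Of all genes, 12.2% had a lower mean than Trib3.

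Chac1 encodes a gamma-glutamyl cyclotransferase that breaks down glutathione (chr2:119351242-119354326). Its log2 ratios were -0.056, -3.13, -4.71 and -0.58 on arrays 1 to 4. Arrays 2 and 3, of opposite dye orientation, were far below 0, and arrays 1 and 4 were within 2-fold of 0. The mean was -2.12 ± 2.19, an SD above the size of the mean, and it was -1.26 without array 3 and -2.81 without array 1. Only 4.09% of genes had an SD as large. The spread of Chac1 therefore ran between arrays of the same orientation, with -1.59 in Cy5 and -2.64 in Cy3.

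**Figure D2:**
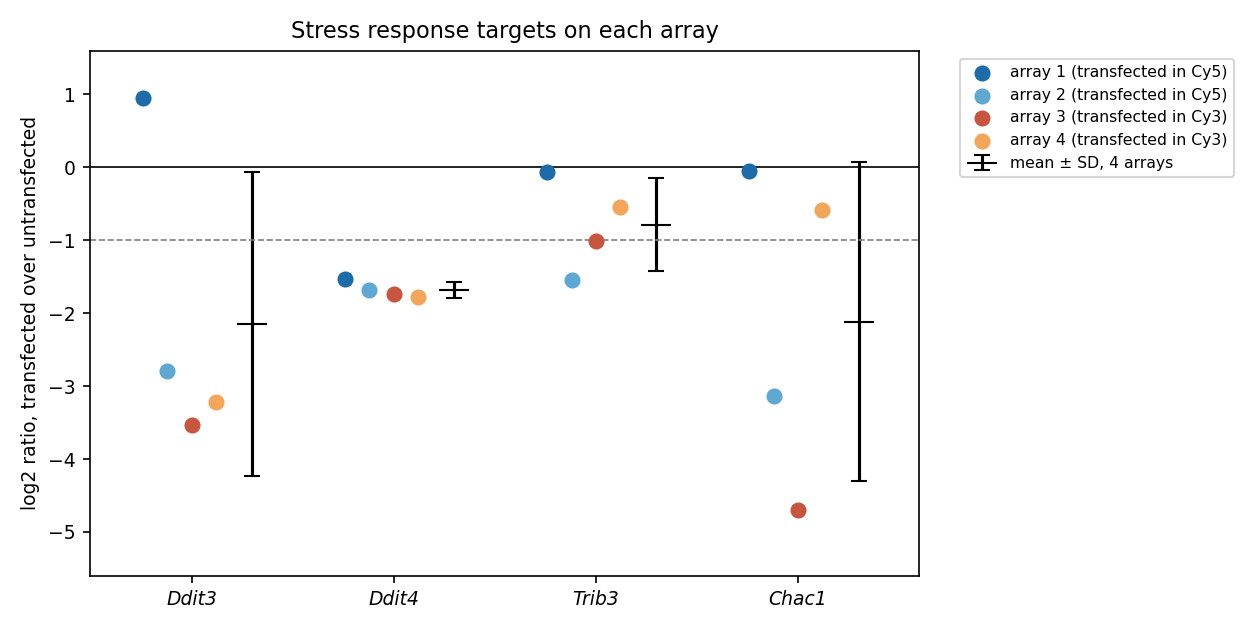
Log2 ratio, transfected over untransfected (vertical axis), of Ddit3, Ddit4, Trib3 and Chac1 on each of the 4 arrays (coloured points), with the mean ± SD over arrays in black; the dashed line marks 2-fold lower. Ddit4 has 4 nearly equal values around -1.68, while the values of Ddit3 range over 4.49 and those of Chac1 over 4.65, and array 1 gives the highest value of each gene.

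From the lowest mean up, the order was Ddit3, Chac1, Ddit4 and Trib3. Ddit3 and Chac1 differed by far less than their SD, and both overlapped Ddit4 and Trib3 in their array values. Ddit4 and Trib3 overlapped only through array 2 of Trib3 (-1.55) and array 1 of Ddit4 (-1.53). All 4 genes had a mean below 0, as had 56.1% of all genes, and 3 of 4 were below 0 on every array, as were 13.0% of all genes. A gene was counted as past 2-fold on 1 side where its mean lay beyond 1 in size and its sign was the same on all 4 arrays. Ddit4 and Chac1 met this on the lower side, where 4.87% of all genes did; on either side 7.25% did. Ddit3, Ddit4 and Chac1 had a mean below -1, as had 7.70% of all genes. These are the values by which the genes were known, and nothing is read from the counts. The median of the 4 means was -1.90, against -0.08 over all genes.

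Array 1 gave the highest value of all 4 genes. Over all genes 29.6% had their highest value there. After each array was centred on its median, array 1 was highest for 3 of the 4 genes and for 22.1% of all genes. The median of the 4 genes was -0.06 on array 1, against -2.24, -2.64 and -1.18 on arrays 2, 3 and 4. The compressed ratios of array 1 moved with this pattern, and their part in it was not tested.

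**Figure D3:**
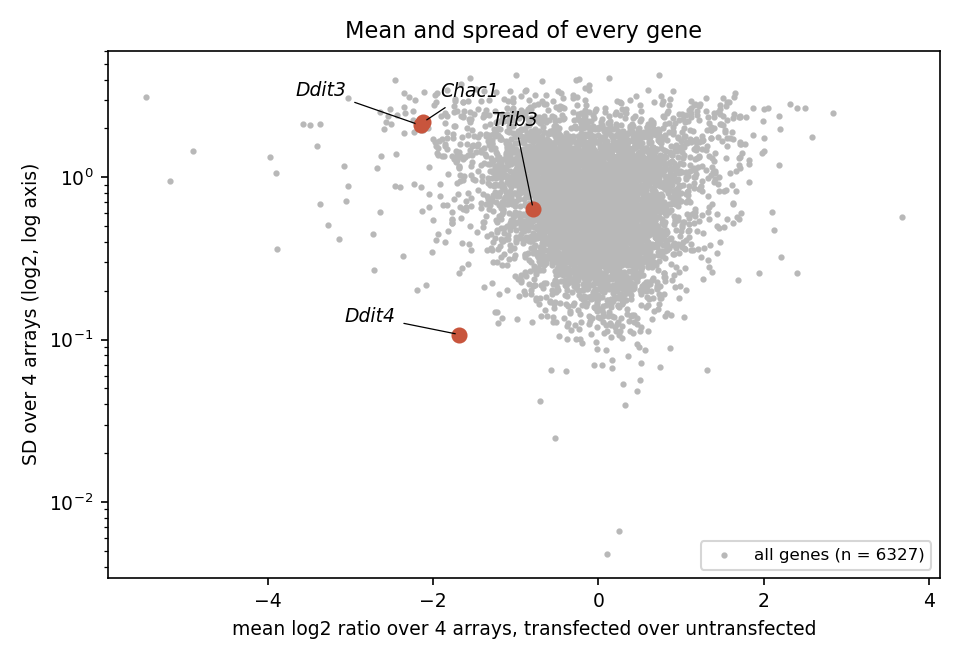
Mean log2 ratio over the 4 arrays, transfected over untransfected (horizontal axis), against its SD over arrays (vertical axis, log scale) for the 6327 genes (grey), with Ddit3, Ddit4, Trib3 and Chac1 in red. Ddit4 combines a low mean (-1.68) with an SD of 0.11, while Ddit3 and Chac1 have low means with SDs of 2.09 and 2.19.

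The genes most like each of the 4, by Euclidean distance over the 4 array values, were listed up to 3 each. Nearest to Ddit3 were Prrg3 (distance 1.88), Gas1 (1.92) and Herpud1 (1.98), all with array 1 far above the others. Herpud1, which encodes an endoplasmic reticulum membrane protein of protein degradation and is itself induced by stress in that organelle, had -0.29, -2.23, -2.69 and -2.06 on arrays 1 to 4. Nearest to Ddit4 were Slc44a1 (0.35), Ifitm3 (0.40) and Hoatz (0.67). Nearest to Chac1 were Cyb561a3 (0.66), Hmgb4 (0.68) and Zfp607b (1.08), each with its lowest value on array 3. Nearest to Trib3 were Spata31d1b (0.17), Ccdc103 (0.26) and Inpp5b (0.32), each lowest on array 2. The distances are a description over 4 arrays of 1 RNA pair.

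Other genes of the response were read from 9 lists, chosen with earlier results of these arrays known, of which 69 of 137 listed genes were measured. Limma called 0 of these 69 genes at an adjusted p under 0.05, lower or higher, and 0 of all 6327 genes (0.00% on either side). At an unadjusted p under 0.05 limma had 12 of the 69 lower and 2 higher. Over all genes it had 474 lower (7.49%) and 256 higher (4.05%), 730 in total, against 355 in total without array 2. Limma's smallest adjusted p over the 69 genes was 0.161. Without the dye term limma called 6 of all genes, of which 0 were on the lists. By the 2-fold count 11 of the 69 genes (15.9%) lay lower, against 308 of all genes (4.87%), and 2 (2.90%) lay higher, against 151 of all genes (2.39%). The 11 became 2 with rows as deposited, 4 and 3 with the offset 1 row lower and higher, 3 in the first rows alone and 5 with array 1 moved along with arrays 2 to 4. The 2 higher became 0 in these settings except with the offset 1 row higher. Genes without a value on all 4 arrays in a setting were not counted, so part of these falls is missing values. With rows as deposited, Slc7a5, Slc6a9, Atf5, Herpud1, Pdia6 and Creld2 had no such value. Of the 11, only Ero1a, Pdia4 and Gclc have a probe in the first rows, and the 2 higher genes have none there. The others could not be counted in the first rows alone. Without array 1, 542 of all genes lay lower past 2-fold and 247 higher; 228 lay higher without array 3 and 289 without array 4. Fewer arrays then had to share a sign. On the lists 1 gene lay higher without array 3.

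Genes that ATF4 raises for amino acid supply were read in 3 lists. Of the aminoacyl-tRNA synthetase and tRNA export genes 7 of 13 were measured, 0 past 2-fold, with a median of 0.09, which was -0.51 in the first 6000 rows alone, and -0.54 and -0.30 with the offset 1 row higher and lower. The largest in size were Cars (-0.63 ± 2.26), Iars (0.56 ± 0.51) and Eprs (-0.54 ± 0.51), the synthetases of cysteine, isoleucine, and glutamate and proline. Cars rests on array 1 (-3.86), and its mean was 0.45 without it. Of the amino acid and one-carbon enzyme genes 7 of 14 were measured, again 0 past 2-fold, with a median of 0.22. Mthfd2, a mitochondrial folate enzyme, had 0.60 ± 0.40, Mthfd1l 0.55 ± 0.75 and Shmt2 -0.57 ± 1.01; both probes of Shmt2 lay in the lower rows and differed, with means of -1.88 and 0.26. The asparagine synthetase gene Asns, a standard ATF4 target chosen here after its value was seen, had 0.51 ± 0.38. The means of the genes on these 2 lists lay within 1 of 0.

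Amino acid transporter genes were measured for 5 of 9, with a median of -0.53. Slc7a5, the light chain of the large neutral amino acid transporter, had -1.68, -1.60, -1.09 and -0.53 on arrays 1 to 4, a mean of -1.22 ± 0.53. The glycine transporter gene Slc6a9 had -0.80, -1.87, -1.81 and -1.72, a mean of -1.55 ± 0.50. Both were below 0 on every array and past 2-fold in the mean, and neither passed limma (adjusted p = 0.320 and 0.303). Slc3a2, the partner chain of Slc7a5, had mixed signs, with -0.24, -3.23, 0.06 and 1.30. All 5 had probes only in the lower rows.

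Among the factors and other targets, 10 of 21 were measured, with a median of -0.38 and 3 past 2-fold, all lower. Atf4 itself had 0.04, -0.14, 0.26 and 0.33 on arrays 1 to 4, a mean RNA ratio of 0.12 ± 0.22; it was singled out after its value was seen, as the factor upstream of the 4 genes, and it is controlled mainly in translation, which arrays do not measure. Ero1a, an endoplasmic reticulum oxidase gene and CHOP target, had -1.23, -2.73, -2.39 and -1.84, a mean of -2.05 ± 0.66, from a probe in the first rows. Herpud1 had a mean of -1.82 ± 1.05. Atf5, a factor related to Atf4, had -1.54 ± 2.30, which rests on array 4 (-4.97); the other 3 arrays lay between -0.72 and -0.12. Ppp1r15a, which encodes GADD34, a subunit of the eIF2 phosphatase, had -0.48 ± 0.62 and was also singled out after its value was seen.

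Of the eIF2 kinase, eIF2 and eIF2B genes 7 of 15 were measured, with a median of 0.01 and 0 past 2-fold. The median was -0.53 with rows as deposited, -0.33 with capped ratios kept or with probes kept separate, and -0.26 without array 1. The highest mean was that of Eif2ak2, the gene of the kinase PKR, with 0.29 ± 1.35, where array 1 had 2.30 and the other 3 arrays lay below 0; it was named after its value was seen. Eif2b2 and Eif2b5, subunits of the exchange factor eIF2B, had -0.59 ± 0.36 and -0.36 ± 1.18, and Impact, an inhibitor of the kinase GCN2, had -0.33 ± 0.36.

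Genes of endoplasmic reticulum chaperones and stress sensors had a median of -0.72, with 11 of 19 measured; it ranged from -1.08 without array 1 to -0.18 with the offset 1 row higher. All 11 had a mean below 0, as had 56.1% of all genes, and 5 lay past 2-fold lower, where 4.87% of all genes did. Pdia6, a disulphide isomerase gene, had -1.78, -3.11, -3.01 and -2.67 on arrays 1 to 4, a mean of -2.64 ± 0.61. Creld2, a secreted stress-induced protein gene, had -1.13, -2.499, -3.05 and -2.92, a mean of -2.40 ± 0.88. The calcium-binding chaperone gene Calr had -0.89, -2.65, -2.91 and -2.48, a mean of -2.23 ± 0.92. These 3 genes had every array below 0 and array 1 nearest to it.

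Hspa5, which encodes the chaperone BiP, had -0.14, -2.33, -1.98 and -2.23, a mean of -1.67 ± 1.03. Pdia4, a disulphide isomerase gene, had -0.43, -1.96, -1.77 and -1.99, a mean of -1.54 ± 0.75. In all 5 genes, as in Ddit3, array 1 was the highest value. Only Pdia4 had a probe in the first rows. With all rows as deposited 0 of the list lay past 2-fold lower, and with array 1 moved along with arrays 2 to 4 there were 2. As deposited, Pdia6 and Creld2 had no value on all 4 arrays and could not be counted.

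**Figure D4:**
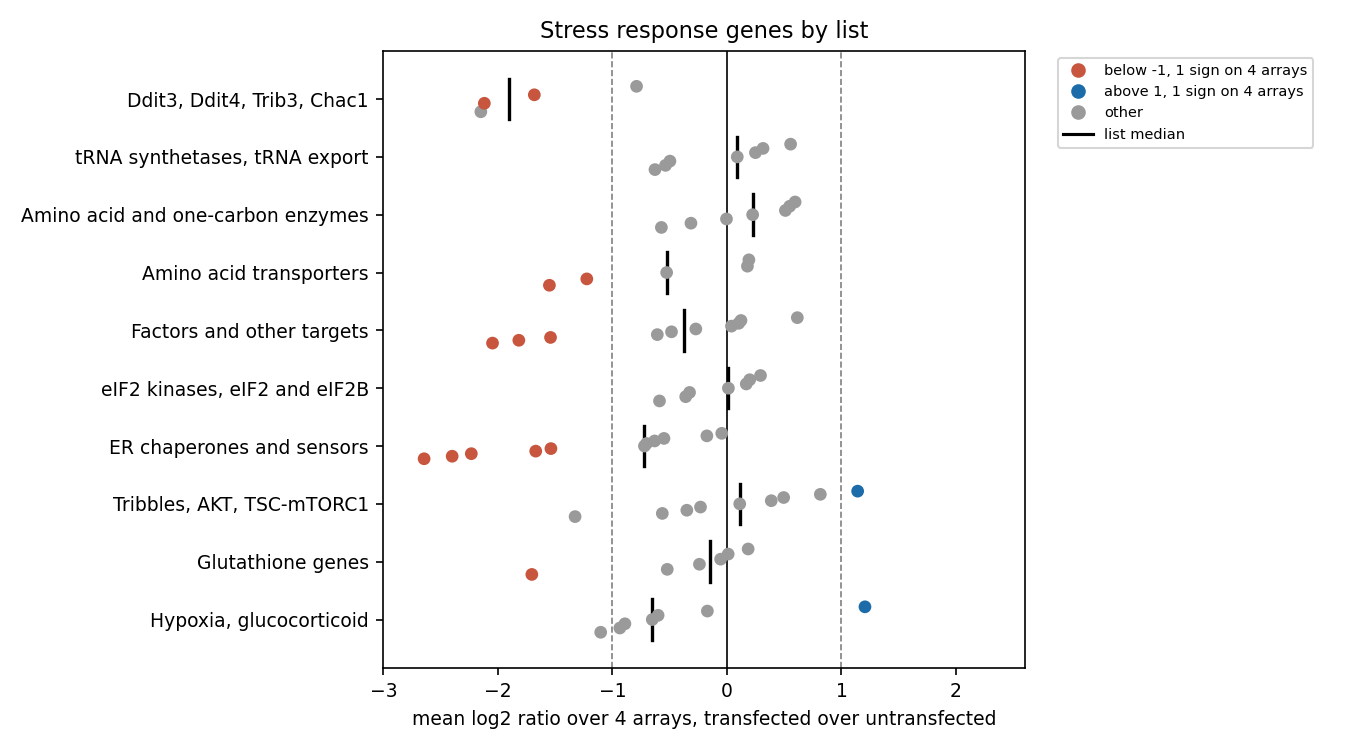
Mean log2 ratio over the 4 arrays, transfected over untransfected (horizontal axis), of Ddit3, Ddit4, Trib3 and Chac1 and of each measured gene of the 9 lists (points), with list medians as black bars and dashed lines at 2-fold; red and blue points lie past 2-fold with 1 sign on all arrays. The endoplasmic reticulum list holds 5 of the 11 red points outside the top row. The tRNA synthetase, amino acid enzyme, eIF2, Tribbles and hypoxia lists hold none. The Tribbles and hypoxia lists hold 1 blue point each.

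The partners of Trib3 and Ddit4 had a median of 0.11 over 9 of 17 measured genes. Trib1, another Tribbles pseudokinase gene, was the 1 gene past 2-fold, on the higher side, with 1.12, 0.75, 2.67 and 0.02 on arrays 1 to 4 and a mean of 1.14 ± 1.12; its largest value was on array 3 and array 4 was at 0.02. Tsc2, which encodes a subunit of the complex through which REDD1 acts, had -1.33 ± 1.69 with array 1 at 0.42. Its 2 probes, each averaged over the arrays where it had a value, had means of -0.95 and -0.75, both nearer to 0. Akt1, a kinase gene, had 0.82 ± 0.60 and was above 0 on every array.

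Of the glutathione genes 6 of 13 were measured, with a median of -0.15. Gclc, the catalytic subunit of the enzyme that starts glutathione synthesis, lay past 2-fold lower with -1.83, -0.95, -1.28 and -2.76 on arrays 1 to 4, a mean of -1.70 ± 0.79 (limma, adjusted p = 0.303). Both of its probes were in the first rows and had means of -1.72 and -1.53. Its regulatory subunit gene Gclm had -0.52 ± 1.004 and Gpx1, a glutathione peroxidase gene, -0.24 ± 0.46.

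Targets of hypoxia and glucocorticoids, which induce Ddit4 by other routes, had a median of -0.65 over 7 of 16 measured genes, of which 6 had a mean below 0 and 0 lay past 2-fold lower. Ndrg1, a hypoxia-induced gene, lay past 2-fold on the higher side, with 1.70, 1.07, 0.85 and 1.20 on arrays 1 to 4 and a mean of 1.21 ± 0.36 (limma, adjusted p = 0.338). Hif1a, the hypoxia factor gene, had -1.10 ± 1.56, which rests on array 3 (-3.36). The prolyl hydroxylase gene Egln1, a sensor of oxygen, had -0.94 ± 0.25, and P4ha1, a collagen prolyl hydroxylase gene named after its value was seen, had -0.89 ± 0.34. Both were below 0 on every array, as was Ddit4, while Ndrg1 was the 1 gene of the list with a mean above 0.

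Ratios do not show whether a marker is expressed, so the cell type could not be checked by level. Of 10 fibroblast markers 7 were measured. Col1a1 and Col1a2, of type I collagen, had -4.91 ± 1.46 and -3.36 ± 0.69, while Vim had 0.66 ± 0.18 and the other 4 had means between -0.36 and 0.89. The 4 probes of Col1a2 differed, with means from -4.87 to -0.62. Of the markers of other cell types, 3 of 7 were measured for epithelial cells, 2 of 7 for leukocytes, 3 of 6 for adipocytes and 3 of 7 for muscle. Of these 1, the leukocyte gene Lyz2 (-1.17 ± 0.70), lay past 2-fold lower, and 0 lay higher. The 2 probes of Lyz2 had means of -1.91 and -0.43. The part of these markers in the ratios of the stress response genes was not tested.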

How the data were processed

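The deposited values are log2 ratios of both channels, 1 column per array; per the labels' protocols, RNA was reverse transcribed and labelled indirectly with Cy3 and Cy5. For image analysis, background correction, normalization and ratio direction, the method is not given in the sources used here. Values beyond 15 in size, apparently a cap, were set to missing (63 to 121 values per array). The first 6000 rows were read as they stand; in the middle rows, up to 18000, and the last rows, arrays 2 to 4 were read 3 and 4 rows above the probe name, and 2300 rows between these stretches were left out. Of 20355 probes, 14030 had 1 gene symbol, 13994 of them matched to RefSeq (GRCm38.p6). Probes were averaged per gene, and genes with a value on all 4 arrays were kept.

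All genes were fitted with limma 3.58.1 (R 4.3.3, lmFit, eBayes) with a dye term, Benjamini-Hochberg adjustment over 6327 genes and a threshold of 0.05. The fit was also run on simulated data with independent noise and the largest SDs cut down. That run does not cover genes with a wider spread or the row offsets. Limma's p-values cover the spread between arrays only. The genes, lists and motifs were chosen with earlier results of these data known. Named list genes are those past 2-fold on 1 side, filled up to 3 per list by size of the mean, and 3 nearest genes per member. Alternatives were centring, scaling, row offsets, capped values, single probes, fewer arrays, no dye term and robust variances.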

Additional observations from a re-analysis of the deposited data

Results flagged for a closer look

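In 49 sets of 4 array values (the named genes other than the 4, and the list medians), 5 had 1 array far from the other 3, by a gap to the nearest value above Dixon's 95% limit for its share of the range. About 5% of groups do so by chance, but these genes had partly been picked for the size of their mean, so the count cannot be set against it. Array 1 was the one apart for Hspa5 (-0.14, with a gap of 0.838 of the range), Pdia4 (-0.43; 0.860) and Slc6a9 (-0.80; 0.862), in each case nearer to 0 than the others. For Atf5 array 4 lay apart at -4.97 (0.875), and for Hoatz, a gene near Ddit4 in its values, array 3 lay apart at -2.14 (0.858).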

How the results depend on the processing

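Ddit4, Trib3 and Chac1 have 1 probe each in the first rows, so most alternatives leave them as they are by construction; only centring, scaling and leaving out an array can move them. The mean of Ddit3 became 0.72 with arrays 2 to 4 read 1 row higher, a move beyond its SD, and -0.08 with rows as deposited; 1 row lower, array 3 had no value. Leaving out 1 array gave -3.18 to -1.69 for Ddit3, -2.81 to -1.26 for Chac1, -1.03 to -0.54 for Trib3 and -1.73 to -1.65 for Ddit4. Of all genes limma then called 1 when arrays were scaled to a common spread, 6 when probes were kept separate and 6 when dye was dropped from the model, in place of 0. Genes at an unadjusted p under 0.05 (730) numbered 276 in the first 6000 rows, where fewer genes were tested, and 355 to 981 without 1 array. Genes past 2-fold numbered 170 lower and 45 higher in the first rows; without 1 array they were 387 to 542 lower and 209 to 289 higher, and with at least 3 arrays required 235 lay higher.

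On the lists, 11 genes lower past 2-fold became 2 with rows as deposited, 3 and 4 with the offset 1 row higher and lower, 3 in the first rows and 5 with array 1 moved along with the others, an alternative chosen after seeing the data. The 2 higher genes became 0 with rows as deposited, with the offset 1 row lower, in the first rows and with array 1 moved, and 1 to 3 without 1 array. Part of both falls came from genes with no value on all 4 arrays in a setting, or no probe in the first rows. Of the named genes, 14 changed sign in at least 1 alternative. Among the 6 of these past 2-fold, with the offset 1 row higher, Creld2 (0.54) and Gas1 (0.50) changed sign, with it 1 row lower Ndrg1 (-0.84) and Slc6a9 (0.015), and with rows as deposited Hspa5 (0.24) and Trib1 (-0.18). The other 8 did not meet the 2-fold rule: Cars, Eif2b5, Gclm, Gpx1, Hmgb4, Shmt2, Slc3a2 and Spata31d1b. The causes were not tested, beyond the rows read. With TGATGCAA in place of TGATGNAA, 1 of the 4 genes held the element in place of 2.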

Other observations

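Of the measured genes, 10 held the letters of the endoplasmic reticulum stress response element in the 300-base window, and their median mean log2 ratio was -0.73, against -0.08 for 5128 measured genes without them. Of the 10, 4 lay past 2-fold lower (Calr, Creld2, Hspa5 and Pdia6), against 4.78% of the genes without them. The letters mark much the same genes as the chaperone list, which holds 7 of the 10, so this is the same measurement seen from the promoter side. The others were Acnat2 (-0.44 ± 1.65), Alg12 (-0.73 ± 0.54) and Derl3 (0.56 ± 0.36). Derl3, which encodes a protein of endoplasmic reticulum degradation, was above 0 on every array. All were named after their values were seen.

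The median of genes with the C/EBP-ATF letters TGATGNAA was -0.06 over 150 measured genes, against -0.08 over 4988 without them, and 3.33% lay past 2-fold lower, against 4.89%. With the exact form TGATGCAA the median was 0.01 over 37 genes, and 10.8% lay past 2-fold lower, against 4.80% without it. Chac1, picked with its value known, is 1 of the 37 and 1 of those past 2-fold lower. It is also among the 150, as is Trib3, which did not meet the 2-fold rule. These are counts without a test.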
